A study of Mus musculus with 71 samples.

Results

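Levels of the 4 mature microRNAs (miRNAs) of the mouse hairpins Mir139 and Mir31, namely mmu-miR-139-5p, mmu-miR-139-3p, mmu-miR-31-5p and mmu-miR-31-3p, were examined in 3 brain regions. They were 4 of 1927 mature miRNAs listed in the deposited tables, of which 1085 had a count in at least 1 library. The 4 were selected on their counts, which were far lower in the cerebellum of naive wild-type mice than in cortex and striatum (below, the prefix mmu-, for mouse, is left out). Values of the naive wild-type libraries are therefore given between tissues as a description, without a test. The 4 names were looked up in the raw counts of all 12 groups. The choice held for miR-139-5p, miR-139-3p and miR-31-5p, whereas miR-31-3p had almost no counts in striatum as well as in cerebellum.

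A miRNA gene is transcribed into a hairpin that is cut to a short duplex, and usually 1 strand of that duplex, the 5p or the 3p arm, is kept in an Argonaute protein. The retained strand pairs with messenger RNAs mainly through its seed, bases 2 to 8, and lowers their translation and stability. The other arm is mostly degraded, so the arms of 1 hairpin can differ widely in level. miR-139-5p is known chiefly as a miRNA that is lost in several tumours, and miR-31-5p as a suppressor of metastasis in breast cancer cells and a repressor of the transcription factor Prox1 in endothelium.

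Small RNA was sequenced from left cortex, left striatum and right cerebellum of male mice. Animals were either DYT1KI or wild type (WT), and were naive or had the right sciatic nerve crushed for 1 min at 12 weeks of age. DYT1 is an inherited dystonia caused by mutation of TOR1A, the gene of the endoplasmic reticulum protein torsinA. Per the labels, tissue was taken 12 weeks after injury, and the sources used here give neither the zygosity of the DYT1KI mice nor the age of naive mice. The 4 groups per tissue (naive WT, injured WT, naive DYT1KI, injured DYT1KI) held 6 libraries each, except 5 in the cerebellum of injured WT mice, which gave 71 libraries from 24 numbered animals.

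The 4 mature sequences follow, since a miRNA pairs with messenger RNAs mainly through its seed. Whether reads of the arms could be counted as another miRNA was not examined. They are written 5′ to 3′ as listed by RefSeq for GRCm38.p6, where all 4 members were found, with the seed in capitals.
miR-139-5p: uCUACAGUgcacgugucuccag
miR-139-3p: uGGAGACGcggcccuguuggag
miR-31-5p: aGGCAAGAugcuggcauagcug
miR-31-3p: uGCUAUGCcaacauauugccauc
The 4 seeds differ from each other, and none of the other mature miRNAs among the 1679 of the RefSeq table carries any of them.

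Mir139 lies at chr7:101475376-101475443 on the plus strand (GRCm38.p6), in an intron of Pde2a, which is on the same strand. Pde2a encodes a phosphodiesterase that degrades cyclic AMP and cyclic GMP. The hairpin also overlaps the gene model Gm45837 without touching any of its exons. Mir31 lies at chr4:88910557-88910662 on the minus strand and overlaps 1 exon of a lincRNA gene of the same strand. The hairpins are shown to place the arms that are compared below, with the mature arms in capitals.
Mir139 hairpin: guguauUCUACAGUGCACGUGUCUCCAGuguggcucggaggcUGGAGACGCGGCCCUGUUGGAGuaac
Mir31 hairpin: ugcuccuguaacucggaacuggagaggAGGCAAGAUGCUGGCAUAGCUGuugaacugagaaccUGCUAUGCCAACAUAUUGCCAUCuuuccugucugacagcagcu
In each hairpin 14 bases separate the arms.

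Cortex libraries totalled 5182284 to 10064827 miRNA counts, striatum libraries 6161668 to 10219295 and cerebellum libraries 8199033 to 12582875. Levels below are CPM, the share of a library's counts, scaled by the trimmed mean of M-values (TMM) over all 71 libraries. RNA was extracted with a different kit for cerebellum than for cortex and striatum, per the labels' protocols, so kit and tissue cannot be told apart in any comparison with cerebellum. These are bulk samples, in which fewer cells of a type and less RNA per cell cannot be told apart. A list of 6 cerebellum-enriched miRNAs, used to check the labels, summed to 2705 to 7459 CPM in cerebellum, 148.9 to 383.2 CPM in striatum and 30.66 to 97.03 CPM in cortex. A list of 6 striatum-enriched miRNAs summed to 38151 to 63428 CPM in striatum, 12975 to 22035 CPM in cortex and 7928 to 14892 CPM in cerebellum. Its members were not alike: in naive DYT1KI mice, against striatum, cerebellum had 2 of the 6 called lower and 2 called higher.

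miR-139-5p was the most abundant of the 4 in every group. In naive WT mice its level had a low, median and high of 18625, 20491 and 22202 CPM in striatum, 4814, 5418 and 7005 CPM in cortex, and 521.5, 601.9 and 658.9 CPM in cerebellum. Ranked by mean, it was the 14th miRNA of striatum in all 4 groups, between the 27th and 34th of cortex and between the 72nd and 78th of cerebellum. It made up 2.5% of all miRNA counts in naive WT striatum, 0.648% in cortex and 0.0476% in cerebellum. Striatum was thus the tissue with the highest level, and no cortex library reached any striatum library and no cerebellum library any cortex library.

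The order striatum, cortex, cerebellum recurred in the 3 groups not used to choose the miRNA. In naive DYT1KI mice miR-139-5p had a low, median and high of 16854, 20313 and 22349 CPM in striatum, 4216, 4804 and 6342 CPM in cortex and 570.4, 680.9 and 791.2 CPM in cerebellum. In injured WT mice these were 17026, 21624 and 25073 CPM in striatum, 4513, 5660 and 6353 CPM in cortex and, over 5 libraries, 532, 544.9 and 688.1 CPM in cerebellum. In injured DYT1KI mice they were 19887, 22778 and 26693 CPM in striatum, 4668, 5948 and 7861 CPM in cortex and 541.6, 646.4 and 1023 CPM in cerebellum. The tissues did not overlap in any of these groups, whereas the 4 groups within a tissue did.

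miR-139-3p, the less abundant arm of the same hairpin, followed the same order at a lower level. In naive WT mice its low, median and high were 622.8, 684.8 and 892.3 CPM in striatum, 97.67, 153.5 and 180.2 CPM in cortex and 6.123, 9.137 and 12.78 CPM in cerebellum. In naive DYT1KI mice they were 592.8, 809.7 and 896.8 CPM in striatum, 102.3, 133.6 and 352.8 CPM in cortex and 7.274, 12.57 and 16.81 CPM in cerebellum. After injury, striatum held 420.6, 785.2 and 1163 CPM in WT and 752.6, 889.6 and 1493 CPM in DYT1KI mice, and the tissues again did not overlap. The ratio of mean CPM between striatum and cerebellum was larger than for the 5p arm in each group. It was 63.42 for miR-139-3p beside 29.13 for miR-139-5p in naive DYT1KI, 83.54 beside 35.99 in injured WT and 61.24 beside 32.08 in injured DYT1KI mice, and 79.23 beside 34.37 in the naive WT mice that set the choice. Cerebellum held 56 to 130 counts of miR-139-3p per library, so counting error is a visible part of its spread there.

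miR-31-5p differed from both arms of miR-139 in that cortex and striatum lay together. In naive WT mice its low, median and high were 891.5, 1074 and 1299 CPM in cortex, 918.5, 1097 and 1201 CPM in striatum and 161.1, 208.4 and 224.9 CPM in cerebellum. Over all groups cortex libraries held 891.5 to 1437 CPM, striatum libraries 779 to 1278 CPM and cerebellum libraries 137.8 to 269.1 CPM. The 8 cortex and striatum groups, with means from 1086 ± 96.48 CPM (SD, n = 6, naive WT striatum) to 1240 ± 127.8 CPM (SD, n = 6, naive DYT1KI cortex), interleaved, and each overlapped its neighbour in that order. All cerebellum libraries lay below all of them.

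**Figure D1:**
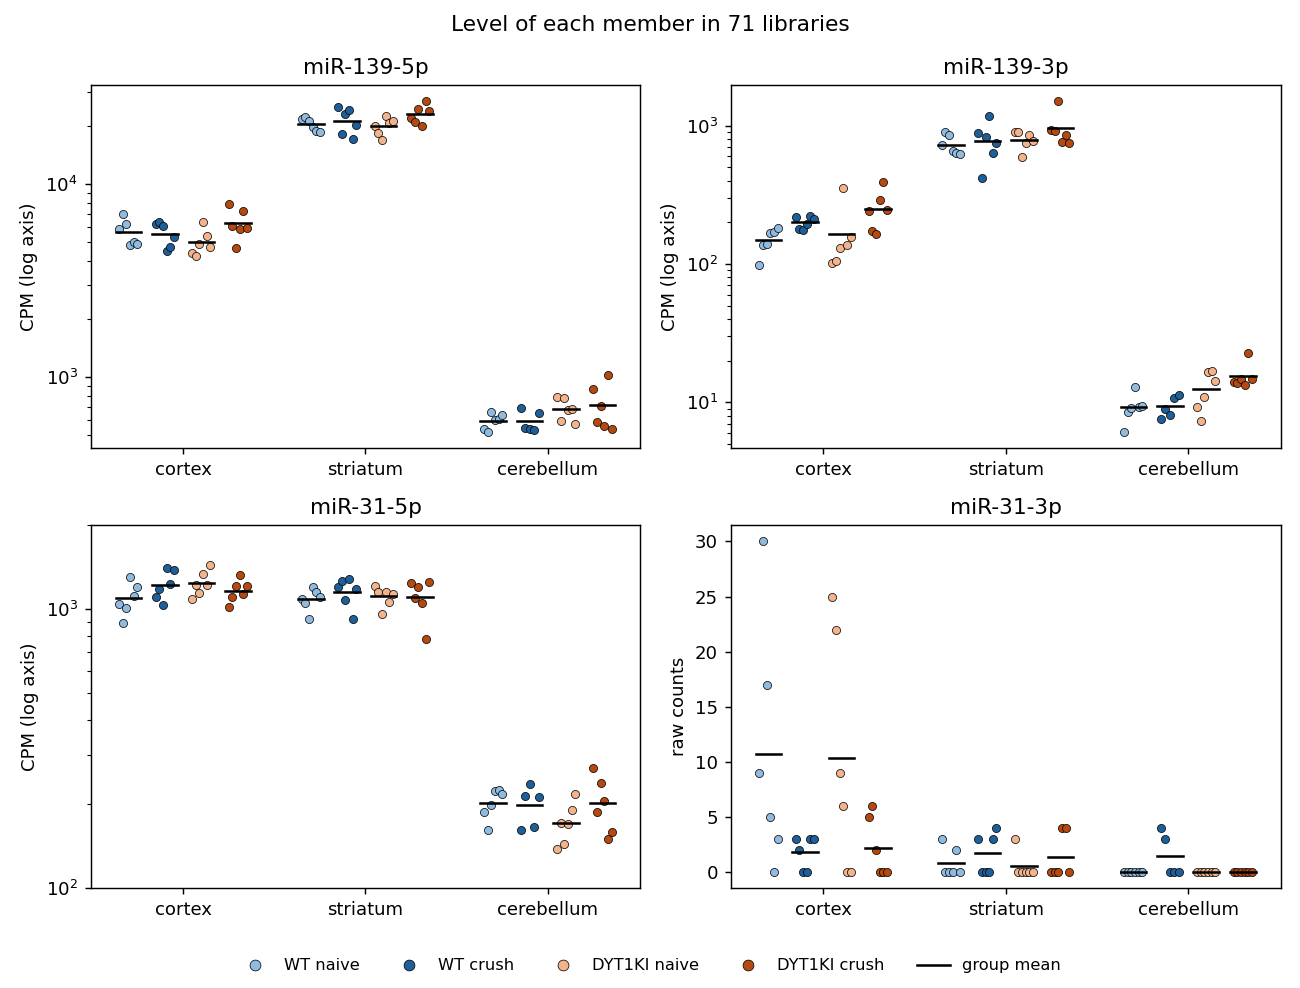
Level of miR-139-5p, miR-139-3p and miR-31-5p in each library (points, CPM on a log axis) with the group mean, by tissue and group. Striatum lies above cortex and cortex above cerebellum for both arms of miR-139, while cortex and striatum share the range of 779 to 1437 CPM for miR-31-5p.

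miR-31-3p was close to undetected. It had 0 to 30 counts per library in cortex, where 16 of 24 libraries had any, 0 to 4 in striatum, where 8 of 24 had any, and 0 to 4 in cerebellum, where 2 of 23 had any. A count of 0 allows up to 3 counts, which is 0.258 to 0.527 CPM in the cerebellum libraries; such limits cover counting error only. The 3p arm supplied 183 counts over all libraries beside 538608 of miR-31-5p. It did not pass the filter on low counts in any tissue, so tests below cover 3 of the 4 members, and between tissues no fold is given for it.

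Between tissues, 2 things were asked of the groups that had not been used to choose the members: whether cerebellum was lower, and whether striatum differed from cortex. A difference was called at an edgeR quasi-likelihood adjusted p under 0.05 with a log2 difference of at least 1 in size. All 3 tested members were called lower in cerebellum than in cortex in naive DYT1KI, injured WT and injured DYT1KI mice, where 23%, 21.3% and 24.8% of all tested miRNAs were. They were also called lower than in striatum in these groups, against 24.7%, 24.1% and 27.1% of all miRNAs. The median log2 difference of all tested miRNAs between cerebellum and cortex was -0.125, -0.112 and -0.124, and it reached -0.262 between cerebellum and striatum of injured DYT1KI mice.

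The cerebellum-to-cortex log2 difference of miR-139-5p was -2.82 ± 0.13 (SE) in naive DYT1KI mice, with an edgeR adjusted p of 1.11e-12. It was -3.32 ± 0.15 in injured WT mice (adjusted p 3.65e-12) and -3.14 ± 0.18 in injured DYT1KI mice (adjusted p 2.33e-11). For comparison, naive WT mice, which set the choice, showed -3.39. miR-139-3p had differences of -3.66 ± 0.29, -4.52 ± 0.23 and -4.01 ± 0.22 in the same order, and miR-31-5p of -2.80 ± 0.12, -2.72 ± 0.13 and -2.53 ± 0.16. Against striatum the differences in that order were -4.88 ± 0.14, -5.20 ± 0.16 and -5.07 ± 0.20 for miR-139-5p, -6.02 ± 0.33, -6.42 ± 0.25 and -5.99 ± 0.24 for miR-139-3p, and -2.72 ± 0.12, -2.58 ± 0.13 and -2.51 ± 0.16 for miR-31-5p. In size the 3p arm of miR-139 thus showed the widest gap of the 3 members in each group.

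Striatum against cortex separated the hairpins. Both arms of miR-139, 2 of the 3 tested members, were called higher in striatum in each of the 3 groups, where 8.47%, 8.52% and 9.35% of all miRNAs were (naive DYT1KI, injured WT, injured DYT1KI). The log2 difference of miR-139-5p was 2.07 ± 0.12, 1.88 ± 0.13 and 1.93 ± 0.17 (SE) in that order, and that of miR-139-3p 2.36 ± 0.27, 1.89 ± 0.18 and 1.98 ± 0.20. The edgeR adjusted p of these 6 differences was at most 1.49e-06. miR-31-5p was not called: its differences were -0.09 (95% interval -0.30 to 0.13), -0.14 (-0.36 to 0.07) and -0.02 (-0.31 to 0.27), with edgeR adjusted p of 0.544, 0.349 and 0.934. These intervals exclude a log2 difference of 1 in either direction.

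Most, but not all, other neuron-enriched miRNAs were also lower in cerebellum. Of a list of 12, 9 were called lower than in cortex in naive DYT1KI mice, 8 in injured WT and 9 in injured DYT1KI mice, and 0 were called higher. Their median log2 difference was -1.80, -1.53 and -1.72. Among them, in naive DYT1KI mice, miR-128-3p differed by -1.89 ± 0.08 (SE), miR-221-3p by -2.32 ± 0.17 and miR-383-5p by -2.03 ± 0.19. The 3 not called were miR-124-3p at 0.77 ± 0.23, miR-129-5p at 0.14 ± 0.20 and miR-9-5p at 0.14 ± 0.08. Against striatum 8 of the 12 were called lower in naive DYT1KI mice and 1, miR-124-3p, higher at 1.88 ± 0.24. The part that cell composition takes in the level of the miR-139 and miR-31 arms was not tested.

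**Figure D2:**
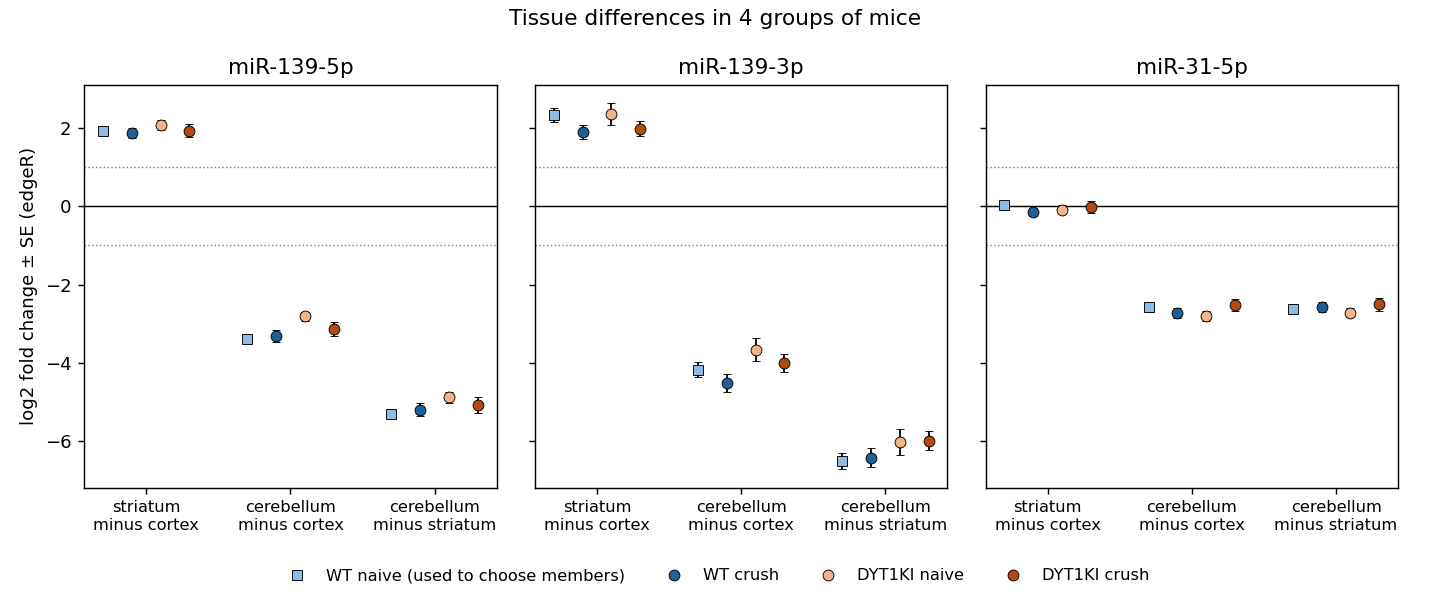
Log2 differences between tissues for the 3 tested members in each group, with error bars of 1 SE; naive WT points are the values that set the choice. Both miR-139 arms are about 2 log2 units higher in striatum than in cortex while miR-31-5p lies near 0, and all are below cortex in cerebellum.

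Among 476 candidate miRNAs, those whose pattern over the 12 group means was nearest to each member were found by the root mean square difference of centred log2 CPM. The nearest to miR-139-5p was its partner miR-139-3p at a distance of 0.503, then miR-485-3p at 0.543 and miR-193b-5p at 0.810. miR-485-3p had mean levels of 11.94 CPM in cortex, 27.44 CPM in striatum and 1.751 CPM in cerebellum. miR-31-5p was nearest to miR-137-5p at 0.181, with 12.17, 12.51 and 1.716 CPM in the same order, followed by miR-1843b-3p at 0.266 and miR-409-5p at 0.303. The distance between miR-139-5p and miR-31-5p was 1.09, larger than any of these.

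Within each tissue, injury (crush against naive) and genotype (DYT1KI against WT) were compared, each as an average over the levels of the other factor and separately within each. At an edgeR adjusted p under 0.05, called differences of the members were limited to 2, both of miR-139-3p: with injury in cortex and with genotype in cerebellum. p-values measure the spread between these libraries.

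In cortex, miR-139-3p was higher after nerve injury. In WT mice its low, median and high were 97.67, 153.5 and 180.2 CPM in naive and 176.5, 203.7 and 222.3 CPM in injured mice. In DYT1KI mice they were 102.3, 133.6 and 352.8 CPM in naive and 163.1, 244.6 and 389.1 CPM in injured mice. The groups overlapped, but 11 of 12 injured libraries lay above the naive mean of their genotype.

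The average log2 difference was 0.53 ± 0.18 (SE), a 1.444-fold higher level, with an edgeR adjusted p of 0.0287. It was 1 of 3 members called, where 30.9% of all 530 tested miRNAs were called and 10.9% were called higher, so a call alone was common in this comparison. Within WT the difference was 0.43 ± 0.25 (adjusted p 0.247) and within DYT1KI 0.63 ± 0.25 (adjusted p 0.132), neither called. miR-139-5p differed by 0.16 ± 0.09 (adjusted p 0.168) and miR-31-5p by 0.04 ± 0.08 (adjusted p 0.716). In the authors' deposited table, the log2 difference of miR-139-3p was 0.41 with an adjusted p of 0.196 in WT and 0.52 with 0.122 in DYT1KI.

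The cortex result was uneven over the labelled biological replicate numbers (biol rep). Among biol rep 1 to 3, naive libraries held 97.67 to 138.8 CPM (WT) and 102.3 to 130.5 CPM (DYT1KI), below all injured ones at 163.1 to 242.1 CPM. The injury difference was 0.87 ± 0.14 (SE, edgeR adjusted p 0.000378) there. In this range all 6 naive libraries had counts of miR-24-3p, a miRNA listed at 0 in 16 of the 24 cortex libraries. Of the injured ones, WT replicate 3 (176.5 CPM of miR-139-3p) and DYT1KI replicate 2 (172.8 CPM) had such counts. The rest of the injured ones held 163.1 to 242.1 CPM of miR-139-3p. Whether its level goes with that of miR-24-3p was not tested. Among biol rep 4 to 6, naive libraries held 136.6 to 352.8 CPM and injured ones 195.1 to 389.1 CPM. The overlap came from 1 naive DYT1KI library (replicate 4) at 352.8 CPM, and the other naive ones held 136.6 to 180.2 CPM. The difference in this range was 0.40 ± 0.20 (edgeR adjusted p 0.143). Without that library the difference over all biol rep was 0.716 (edgeR adjusted p 0.00235). Leaving out 1 library gave differences of 0.479 to 0.716 (adjusted p 0.00235 to 0.0632), and 9 of the 24 libraries each ended the call when left out. The labels do not say what the biol rep numbers stand for.

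Some marker miRNAs were also called in this comparison, where 20% of all 530 tested miRNAs were called lower and 10.9% higher. Of 6 miRNAs of microglia and leukocytes, 3 were lower after injury in cortex, among them miR-146a-5p at -0.68 and miR-223-3p at -0.49, and miR-155-5p was higher at 0.48 (log2). In WT cortex that list summed to 360.4 to 604.1 CPM (naive) and 256.4 to 354 CPM (injured), and in DYT1KI cortex to 240.2 to 496.2 CPM (naive) and 230.5 to 420.6 CPM (injured). Of the 12 neuronal miRNAs, 5 were lower and 1, miR-129-5p, was higher at 0.41, and the erythrocyte miRNA miR-451a was lower at -1.85. Of 4 oligodendrocyte miRNAs, miR-219a-5p was lower at -2.43. Of the lists for other tissue, miR-206-3p, 1 of 5 cerebellum-enriched miRNAs tested, was higher at 0.68 and the ependymal miR-449a-5p, 1 of 3 tested, at 0.56. The vessel wall miR-145a-5p, 1 of 4, was lower at -0.81 and the epithelial miR-203-3p, 1 of 5 tested, at -0.70. Of the 6 striatum-enriched miRNAs, 5 were tested and 0 called. Their part in the rise of miR-139-3p was not tested.

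From earlier results of these data, 4 cortex libraries were left out in an alternative as rich in marker miRNAs of other tissue. In 3 of them (1 of injured WT, 1 of naive DYT1KI and 1 of injured DYT1KI mice) miRNAs hosted by Htr2c, a serotonin receptor gene, summed to 465.3, 1499 and 1069 CPM, beside 12.48 to 61.98 CPM in the 20 libraries kept. The fourth, of an injured DYT1KI mouse, had 26.67 CPM of these but 45.39 CPM of miR-449a-5p and 81.85 CPM of miR-206-3p, beside at most 15.14 and 24.48 CPM in the 20. Their miR-139-3p, at 102.3 to 247 CPM, lay inside the range of the others, 97.67 to 389.1 CPM. Without them the injury difference was 0.50 ± 0.20 with an edgeR adjusted p of 0.0913, and edgeR called 0 of all miRNAs in cortex.

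**Figure D3:**
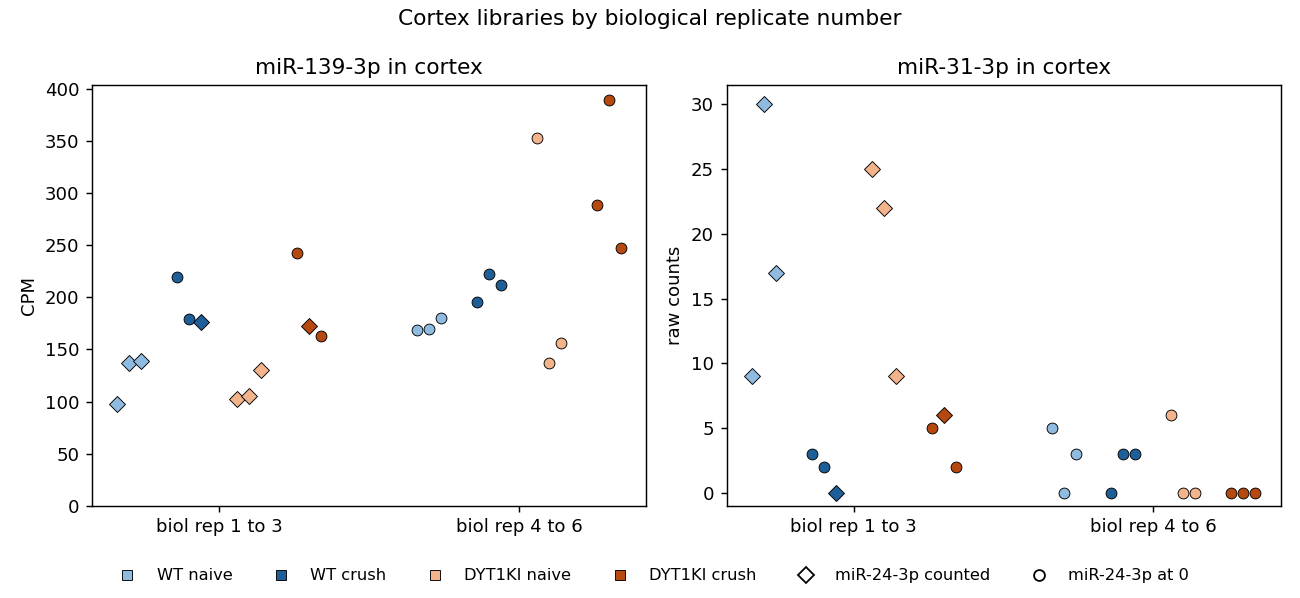
Level of miR-139-3p in cortex libraries (CPM) by group and biol rep range, with injured and naive libraries marked. In biol rep 1 to 3 the injured libraries, at 163.1 to 242.1 CPM, lie above all naive ones. In that range miR-24-3p was counted in 6 naive and 2 injured libraries. In biol rep 4 to 6 the groups overlap through 1 naive DYT1KI library at 352.8 CPM.

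In cerebellum, miR-139-3p was higher in DYT1KI than in WT mice. Naive WT libraries had a low, median and high of 6.123, 9.137 and 12.78 CPM and naive DYT1KI libraries 7.274, 12.57 and 16.81 CPM. The 5 injured WT libraries held 7.575, 8.073, 9.005, 10.65 and 11.32 CPM, and the injured DYT1KI libraries had a low, median and high of 13.35, 14.31 and 22.86 CPM. Injured DYT1KI libraries did not overlap with either WT group, whereas naive DYT1KI libraries overlapped with both. The share of all miRNAs separated in this way was not counted. For genotype in injured cerebellum, 122 of all 555 miRNAs had an unadjusted edgeR p under 0.05.

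The average log2 difference between genotypes was 0.64 ± 0.15 (SE), a 1.555-fold higher level in DYT1KI, with an edgeR adjusted p of 0.0267. Of the DYT1KI libraries, 10 of 12 lay above the WT mean of their treatment. It was 1 of 3 members called, where 5.05% of all 555 miRNAs were called and 3.6% were called higher. Within naive mice the difference was 0.54 ± 0.21 (adjusted p 0.331) and within injured mice 0.74 ± 0.22 (adjusted p 0.162), neither called. In the authors' deposited table it was 0.61 with an adjusted p of 0.0886 in injured mice. miR-139-5p differed by 0.28 ± 0.10 (adjusted p 0.0799), and miR-31-5p by -0.05 ± 0.11 (adjusted p 0.781).

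The call was not kept within biol rep 1 to 3 (0.53, edgeR adjusted p 0.104) or 4 to 6 (0.55, adjusted p 0.181), where fewer libraries entered, nor without the filter on low counts (0.60, adjusted p 0.057). Leaving out 1 library gave differences of 0.564 to 0.693, with adjusted p from 0.0111 to 0.0952, and 6 of the 23 libraries each ended the call. The cerebellum-enriched list summed to 2761 to 4108 CPM (naive) and 2705 to 4051 CPM (injured) in WT mice. In DYT1KI mice it summed to 3455 to 5589 CPM (naive) and 3395 to 7459 CPM (injured). The median log2 genotype difference of its members was 0.07. Not called were miR-182-5p at 0.15, miR-183-5p at 0.13, miR-10a-5p at 0.01, miR-10b-5p at -0.05 and miR-96-5p at -0.24. Of its 6 members, 1 was called, miR-206-3p at 0.60 ± 0.14 (SE, log2). Of the 12 neuronal miRNAs, 1 was called, miR-129-5p, higher at 0.49 ± 0.13, while the median of the 12 was -0.13. Of 3 blood miRNAs tested, 1 was called, the erythrocyte miR-144-3p, lower at -1.58 ± 0.36. Over all miRNAs, 5.05% were called in this comparison. Of the 6 miRNAs of microglia and leukocytes, miR-142a-5p was lower at -0.44 ± 0.13, and the median of the 6 was -0.40. Their part in the level of miR-139-3p was not tested.

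No other within-tissue difference of the members was called. In the comparisons other than average injury in cortex and average genotype in cerebellum, edgeR called 0% of all tested miRNAs. In striatum, where the miR-139 arms are highest, all differences of the 3 members lay within 0.31 log2 units of 0. There miR-139-3p differed by 0.13 ± 0.13 (SE) with injury, with an edgeR adjusted p of 0.819, and by 0.20 ± 0.13 with genotype (adjusted p 0.623). At an unadjusted p under 0.05, edgeR gave 0 members in striatum, 2 with injury within DYT1KI cortex (131 of all 530 miRNAs), 2 with genotype within naive cerebellum (65 of all 555) and 1 with genotype within injured cerebellum (122 of 555). DESeq2 and limma voom called 0 members in those 3 comparisons.

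Whether an effect differed between genotypes, treatments or tissues was tested directly in 27 differences of the members, and 0 were called. The lowest adjusted p was 0.144, for the injury effect on miR-139-3p, where striatum minus cortex was -0.44 ± 0.19 (limma voom, SE, log2). Of the 27, that was the 1 with an unadjusted p under 0.05, and over all miRNAs at most 1.75% were called in any of these comparisons. The genotype effect on miR-139-3p differed by 0.42 ± 0.25 between cerebellum and cortex (adjusted p 0.353). The injury call in cortex and the genotype call in cerebellum are therefore not shown to be particular to these tissues.

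**Figure D4:**
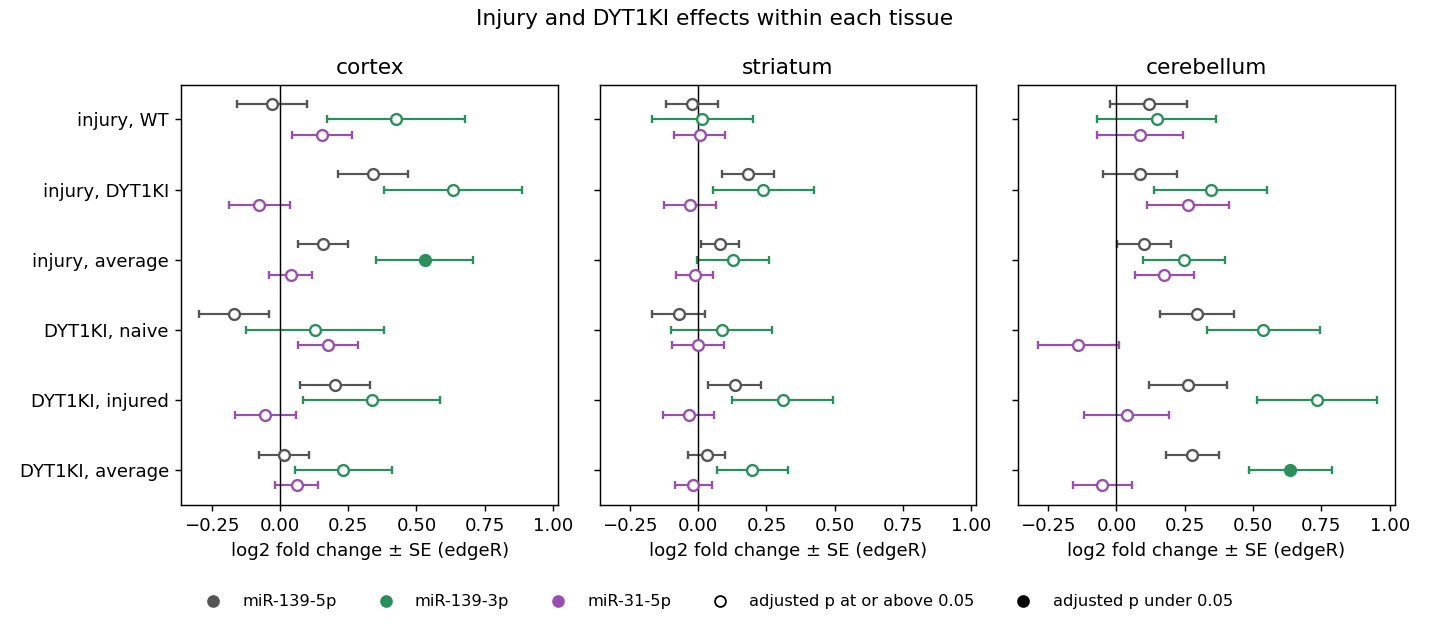
Average log2 differences with injury and with genotype for the 3 tested members in each tissue, with error bars of 1 SE. The called values are those of miR-139-3p, 0.53 with injury in cortex and 0.64 with genotype in cerebellum.

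The arms of miR-139 were compared within each library, which removes the library's depth from the value. The ratio of 5p to 3p counts had a low, median and high of 26.95, 36.92 and 59.83 in naive WT cortex, 24.88, 29.93 and 30.4 in striatum and 46.45, 66.47 and 86.77 in cerebellum. In naive DYT1KI mice the medians were 38.27, 25.88 and 56, in injured WT mice 26.67, 27.51 and 60.08, and in injured DYT1KI mice 26.2, 24.86 and 43.6. The 5p arm prevailed in every library, most of all in cerebellum.

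On the log2 scale the cerebellum ratio exceeded that of cortex by 1.21 in injured WT mice (exact two-sided permutation test, adjusted p 0.0182 over 21 tests, n = 5 and 6). It exceeded it by 0.81 in injured DYT1KI mice (exact permutation adjusted p 0.0152, n = 6 and 6), and the 0.76 of naive DYT1KI mice did not pass (exact permutation adjusted p 0.0779). Against striatum the excess was 1.16 in injured WT mice (exact permutation adjusted p 0.0182). In DYT1KI mice it was 1.16 when naive and 0.88 when injured (exact permutation adjusted p 0.0152 each). Striatum and cortex differed by 0.05, -0.40 and -0.06 in injured WT, naive DYT1KI and injured DYT1KI mice, none of which passed. Paired by animal, cerebellum had the higher ratio in 5 of 5 injured WT mice and in 6 of 6 of each DYT1KI group, against either tissue. The exact paired sign-flip test cannot go below p = 0.0625 with 5 animals and 0.03125 with 6, and after adjustment over 9 tests none passed (0.0938 and 0.0703). Arm ratios of other hairpins were not compared between tissues. The higher ratio in cerebellum is therefore not shown to be particular to miR-139.

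Within tissues the ratio passed in 0 of 12 exact permutation tests, the lowest adjusted p being 0.0758 for genotype in injured cerebellum, with a log2 difference of -0.49. Averaged over the other factor, a comparison chosen after seeing the data, the log2 ratio of injured cortex differed from that of naive cortex by -0.43 (exact permutation p 0.019, adjusted 0.104 over 6 tests). It differed by -0.35 between genotypes in cerebellum (exact permutation p 0.0346, adjusted 0.104). Of all hairpins with both arms counted, 55.6% had an arm ratio that differed with injury in cortex by at least as much in size as miR-139, and 45.9% with genotype in cerebellum.

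**Figure D5:**
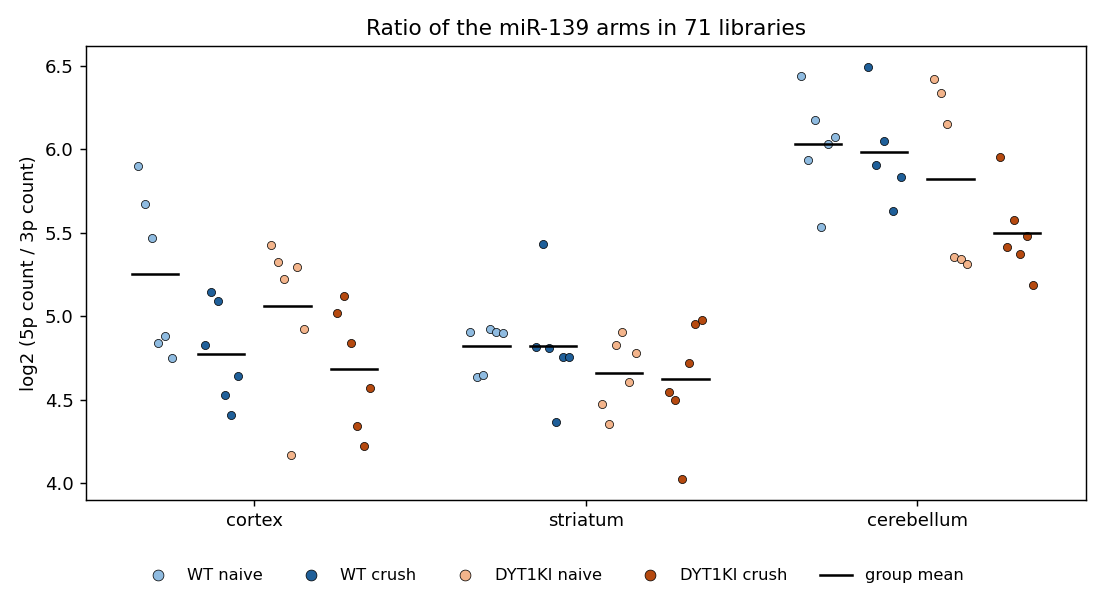
Ratio of miR-139-5p to miR-139-3p counts in each library (log2 axis) with the group mean, by tissue and group. Cerebellum medians of 43.6 to 66.47 lie above the cortex medians of 26.2 to 38.27 and the striatum medians of 24.86 to 29.93.

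The ratio of the miR-31 arms could not be followed in the same way, since miR-31-3p supplied 0.0617% of miR-31 counts in cortex, 0.01% in striatum and 0.0191% in cerebellum. The cortex counts of miR-31-3p were concentrated: the 6 naive libraries of biol rep 1 to 3 held 9 to 30 counts each, 112 in all, and the other 18 held 0 to 6, 38 in all. The same 6 libraries had 891.5 to 1219 CPM of miR-31-5p beside 1013 to 1437 CPM in the others, so the 5p arm was not raised with the 3p arm. Without a filter on low counts the average injury difference of miR-31-3p in cortex was -2.18 ± 0.76 (SE, log2), with an edgeR adjusted p of 0.0533. Within biol rep 1 to 3 it was -2.36 ± 0.53 (SE), where 211 of 539 miRNAs were called. There miR-31-3p passed the filter through the counts of the 6 naive libraries singled out above, so its p-value is left out. All 6 of these libraries were among the 8 cortex libraries with counts of miR-24-3p (94332 to 132962 each), a miRNA listed at 0 in the other 16. The other 2 of the 8 were injured libraries of biol rep 1 to 3, with at most 6 counts of miR-31-3p.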

How the data were processed

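The QIAseq miRNA UDI Library Kit was used on 500 ng of total RNA, extracted with the miRNeasy mini kit for cerebellum and the micro kit for cortex and striatum, per the labels' protocols. featureCounts 1.6.4 and R 4.1.0 are named in the submitters' processing notes; no aligner, genome build, annotation or handling of molecular identifiers is given in the sources used here. Deposited by the authors were 12 comparison tables, each with raw counts of every miRNA, counts divided by size factors (a normalised signal), log2 fold changes with standard errors, a test statistic (score) and p-values. Raw counts were identical wherever tables repeated a library; no count was 1, whereas 997 values were 2.

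Counts were analysed in R 4.3.3 with edgeR 4.0.16 (TMM, filterByExpr with a minimum count of 10 and a total of 15, robust quasi-likelihood test, Benjamini-Hochberg adjustment over all tested miRNAs), leaving 530 (cortex), 547 (striatum) and 555 (cerebellum) miRNAs. Within a tissue, all 4 groups shared 1 fit. Tissues were compared within a group, and differences of effects between tissues were tested with limma 3.58.1 (voom, animal as correlated block) on 629 miRNAs. Intervals are the estimate ± the normal 95% range of its SE. Levels are CPM scaled over all 71 libraries. The arm ratio is log2 of (5p + 0.5)/(3p + 0.5) counts, tested by exact permutation in scipy 1.17.1. The members and miRNA lists were chosen with earlier results of these data known. Named miRNAs are the 4 members, the nearest 3 by pattern, and list members for their call or size. Alternatives were DESeq2 1.42.0, limma voom, other scalings, no filter, replicate blocks, subsets by biol rep and leaving out each library. The edgeR script was tested on simulated data.

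Same-numbered biol rep libraries deviated together (r above 0.1) in 28 of 36 pairs in cortex, 19 of 33 in cerebellum and 2 of 36 in striatum. The number was not taken as pairing, which was to require every pair above 0.1 or a statement in the labels; fits with it as a block are alternatives. Library names give an animal number, which links tissues of 1 animal. The limits given for a count of 0 cover counting error only.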

Additional observations from a re-analysis of the deposited data

Results flagged for a closer look

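In 48 sets of values (the members with enough counts and the miR-139 arm ratio, by group), 4 had 1 library whose level stood far from the rest of its group by Dixon's criterion, which chance gives in about 1 in 20 groups. For miR-139-3p, a naive DYT1KI cortex library (replicate 4) held 352.8 CPM where the other 5 held 102.3 to 155.7 CPM. An injured DYT1KI striatum library (replicate 3) held 1493 CPM of miR-139-3p beside 752.6 to 931.9 CPM in the others. An injured DYT1KI cerebellum library (replicate 5) held 22.86 CPM of it beside 13.35 to 14.78 CPM. For miR-31-5p, an injured DYT1KI striatum library (replicate 5) was low, at 779 CPM beside 1054 to 1251 CPM.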

How the results depend on the processing

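Every called tissue difference in level of the members kept its call under all alternatives run, DESeq2, the animal block and subsets of biol rep (chosen after seeing the data) included. Within tissues, the number of called members moved. For genotype in cerebellum (1 called) it was 0 without a filter, 2 under DESeq2, 2 with biol rep as a replicate block, 0 within biol rep 1 to 3 and 0 within 4 to 6, and 0 to 1 on leaving out 1 library (0 without injured WT 2 or 3, naive DYT1KI 4 or 5, or injured DYT1KI 2 or 5). For injury in cortex (1 called) it was all 3 members of the main fit within biol rep 1 to 3, where 211 of 539 miRNAs were called. There miR-31-3p, lower at -2.36, passed the filter through the naive libraries singled out above. It is left out of the count for that reason. The number called was 0 within 4 to 6 and 0 without the 4 cortex libraries rich in marker miRNAs of other tissue. On leaving out 1 library it was 0 to 2 (0 without naive WT 1 or 2, injured WT 1, 4 or 6, naive DYT1KI 2 or 3, or injured DYT1KI 4 or 5, and 2 without injured DYT1KI 3). For injury within DYT1KI cortex (0 called) it was 1 with the replicate block and 2 with a biol rep range term. It was 2 within biol rep 1 to 3 (53 of 539 miRNAs called) and 0 to 2 on leaving out 1 library. For average injury in cortex the block and the range term called 240 and 242 of all 530 miRNAs. For injury within WT cortex (0 called) it was 1 with only these 2 groups fitted. Within biol rep 1 to 3, where 189 of 539 miRNAs were called, it was above 0 with miR-31-3p left out for the same reason. For injury within DYT1KI cerebellum (0 called) it was 1 within biol rep 1 to 3. Where no number over all miRNAs stands beside such a count, the count is not read as a result on the members. Over all miRNAs edgeR called 28 for genotype in cerebellum, against 89 with the replicate block, 74 with the range term, 68 by DESeq2, 0 without a filter and 0 to 70 on leaving out 1 library; for injury in cortex it called 164, against 25 to 220. The cause of these moves was not tested. The subsets by biol rep held fewer libraries. The log2 injury difference of miR-139-3p in cortex was 0.479 to 0.716 on leaving out 1 library and 0.57 with the replicate block (edgeR adjusted p 0.00237); its genotype difference in cerebellum was 0.61 with the block (adjusted p 0.0104). Neither the labels nor every pair's correlation show that biol rep numbers pair libraries, though most same-numbered cortex pairs deviated together. Arm-ratio calls numbered 5, and 5 to 7 on leaving out 1 library. Depth limits miR-139-3p in cerebellum, and miR-31-3p in all tissues.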
